A study of Mus musculus with 6 samples.

Results

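Stra6 and 7 other genes of retinoid signalling were followed in the hippocampus of mice with and without an adult deletion of Dicer1 in forebrain neurons: the nuclear receptor genes Rara, Rarb, Rxra, Rxrb and Rxrg, the synthesis enzyme gene Aldh1a2 and the degrading enzyme gene Cyp26b1. These 8 genes of the 25896 gene symbols in the files were found by symbol, and each was represented by the transcript with the highest mean raw count over the 6 libraries. All 8 passed the filter on low counts that left 17405 genes. The set was selected on the measured difference of Stra6 between DICER1-ifKO and WT in these libraries, so the differences of its members are given as a description and support nothing further.

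Vitamin A circulates as retinol bound to the carrier RBP4, and STRA6, a membrane receptor for that carrier, lets retinol into cells. Inside the cell retinol is oxidised to retinal and then, by enzymes such as ALDH1A2, to retinoic acid, which CYP26 enzymes break down. Retinoic acid binds retinoic acid receptors (RARs), which act on DNA as pairs with retinoid X receptors (RXRs). In the adult brain ALDH1A2 is best known from the meninges, STRA6 from barrier sites such as the choroid plexus, and retinoic acid signalling from hippocampal plasticity.

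The series holds 6 libraries of hippocampal mRNA from male C57BL/6 mice aged 3 months, 3 WT and 3 DICER1-ifKO. Mice of both groups carried Dicer1 flox/flox alleles and had received tamoxifen 3 weeks before they were killed. The DICER1-ifKO group had in addition CaMKIIa-creERT2, a tamoxifen-inducible Cre recombinase under a promoter of excitatory forebrain neurons, and WT mice had no Cre, so loss of DICER1 and presence of active Cre cannot be told apart. RNA of 3 mice was pooled for every library, which makes 9 animals in each group, whereas the series text speaks of 12. The recombinase acts in neurons, and STRA6 and ALDH1A2 are best known from other cells. In these bulk samples fewer cells of a type and less RNA per cell cannot be told apart.

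Counts over the representative transcripts summed to between 11832794 and 20677845 per library, and 3 counts were worth 0.146 to 0.255 CPM, the count scaled to library size with edgeR's TMM factors. The targeted gene does not check the labels, since its counts cover a whole transcript and not the deleted exon: Dicer1 had 55.6, 62.0 and 55.8 CPM in WT and 58.2, 62.9 and 58.0 CPM in DICER1-ifKO. Markers of hippocampal neurons were present, with 14 of 14 pyramidal neuron genes and 10 of 10 dentate granule cell genes above the filter. Passing the filter does not tell tissues apart, since 12 of 13 striatum and 10 of 11 thalamus and habenula markers passed as well. WT replicate 1 lay apart from the other 5 libraries on the first principal component (30.4% of the variance). In edgeR's quasi-likelihood test 28 of 17405 genes (0.161%) were called at an adjusted p below 0.05, of which 6 (0.0345%) were lower in DICER1-ifKO. With 1 library left out the number called ran from 6 (without DICER1-ifKO replicate 1) to 105 (without WT replicate 2). The WT and DICER1-ifKO values stood fully apart, with no overlap, for 2797 genes (16.1%), of which 1406 (8.08% of those tested) were lower and 1391 (7.99%) higher in DICER1-ifKO.

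Stra6, the retinol uptake receptor, was lower in every DICER1-ifKO library than in any WT library. The gene lies on the plus strand of chromosome 9, and its representative transcript spans chr9:58129088-58153955 (GRCm38, 19 exons). Raw counts were 166, 208 and 207 in WT replicates 1 to 3, and 137, 172 and 180 in DICER1-ifKO. In CPM the WT libraries had 14.1, 13.1 and 12.7, and the DICER1-ifKO libraries 8.90, 9.55 and 8.79. The lowest WT value thus stood above the highest DICER1-ifKO value, and the values within a genotype lay close together. The means were 13.3 ± 0.73 CPM (SD, n = 3) in WT and 9.08 ± 0.41 CPM (SD, n = 3) in DICER1-ifKO, or 68.2% of WT.

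The log2 fold change of Stra6 was -0.55 ± 0.10 (SE), with a 95% interval of -0.75 to -0.35. This placed Stra6 22nd of all genes by p (adjusted p = 0.022, edgeR), and it was the gene with the largest fall by fold among the 6 called lower, ahead of Gm5160 (-0.38), the signalling regulator Rgs14 (-0.31), the translation initiation factor subunit Eif2s1 (-0.31), the calcium buffer Calb1 (-0.27) and the kinase Map2k1 (-0.25). As that contrast picked the gene, its rank is no evidence of its own. The genes nearest to the threshold were Tcte3 (0.59) and Eif2s1 (-0.31) just inside, with Bsn (0.26), Gm5160 and Calb1 before them, and Sik2 (0.40), Ttyh3 (0.22), Fst (-1.49), Ccnd2 (0.31) and Slc6a8 (0.23) just outside. The size of the difference moved little when any 1 library was left out, from -0.59 to -0.51, but the call did not hold: the adjusted p was 0.105 without WT replicate 1, 0.083 without WT replicate 3, and 0.173, 0.067 and 0.079 without DICER1-ifKO replicates 1, 2 and 3. Without WT replicate 2 it was 0.033.

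**Figure D1:**
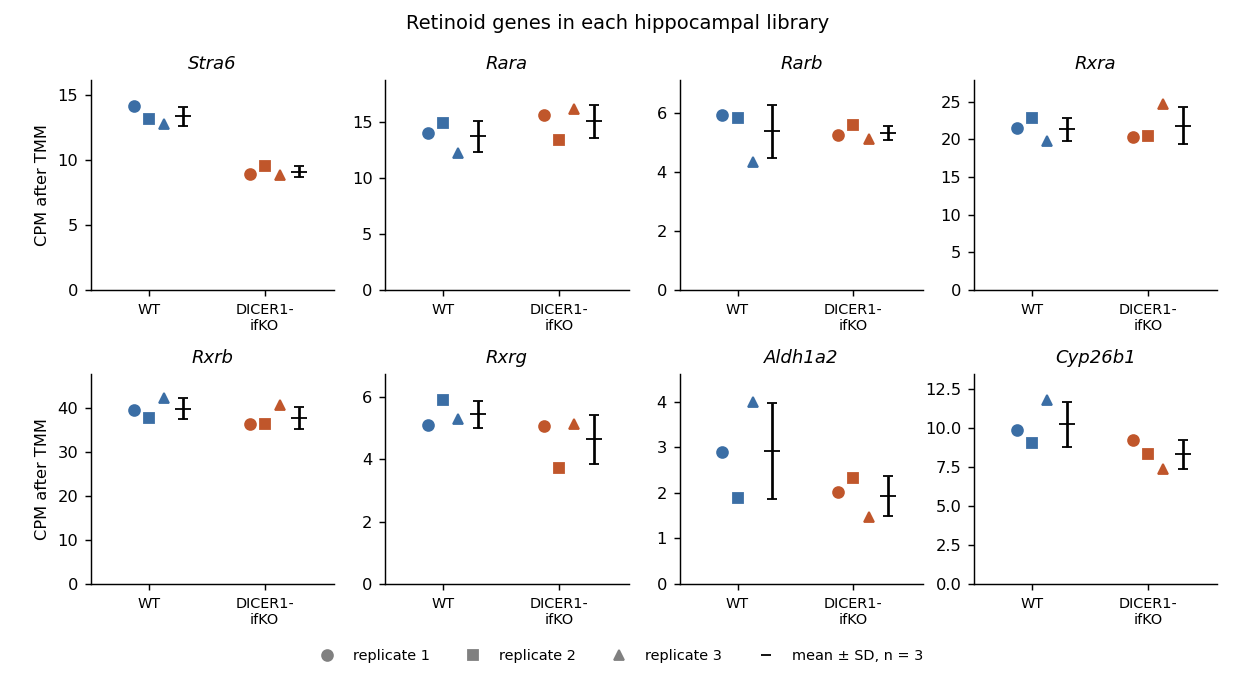
Level of each of the 8 genes in every library, in CPM after TMM on linear axes that start at 0; symbols mark replicates, black marks the mean ± SD (n = 3). Stra6 is the gene whose WT values (12.7 to 14.1) and DICER1-ifKO values (8.79 to 9.55) do not overlap.

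The files list 14 transcripts of Stra6, which share exons and therefore reads, and are not independent. The 4 that reach the end of the gene had 131 to 208 counts per library and log2 fold changes of -0.58 to -0.56 in a fit over all transcripts. Another 10 end in the 5′ part, with 3 to 88 counts, and the 8 of them that passed the filter had log2 fold changes of -0.71 to -0.54 with SEs of 0.20 to 0.31. All 12 tested transcripts were thus lower in DICER1-ifKO, those of the 5′ part with wide errors.

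The WT libraries did not keep the same order along the gene. Stra6-012, a transcript of the 5′ part, had 20, 44 and 61 counts in WT and 27, 40 and 32 in DICER1-ifKO, so its groups overlapped. As a percentage of the counts of Stra6-001 this was 12.0, 21.2 and 29.5 in WT and 19.7, 23.3 and 17.8 in DICER1-ifKO. WT replicate 1, the highest library for the whole transcript, was thus the lowest of all 6 for that ratio, and WT replicate 3 the highest. Stra6-003, Stra6-012 and Stra6-011 start upstream and run across Ccdc33, which lies on the other strand (log2 fold change -0.39 ± 0.19 SE), and reads of opposite strands could not be separated in these counts. Whether read coverage along the gene or Ccdc33 reads had a part in these values was not tested.

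**Figure D2:**
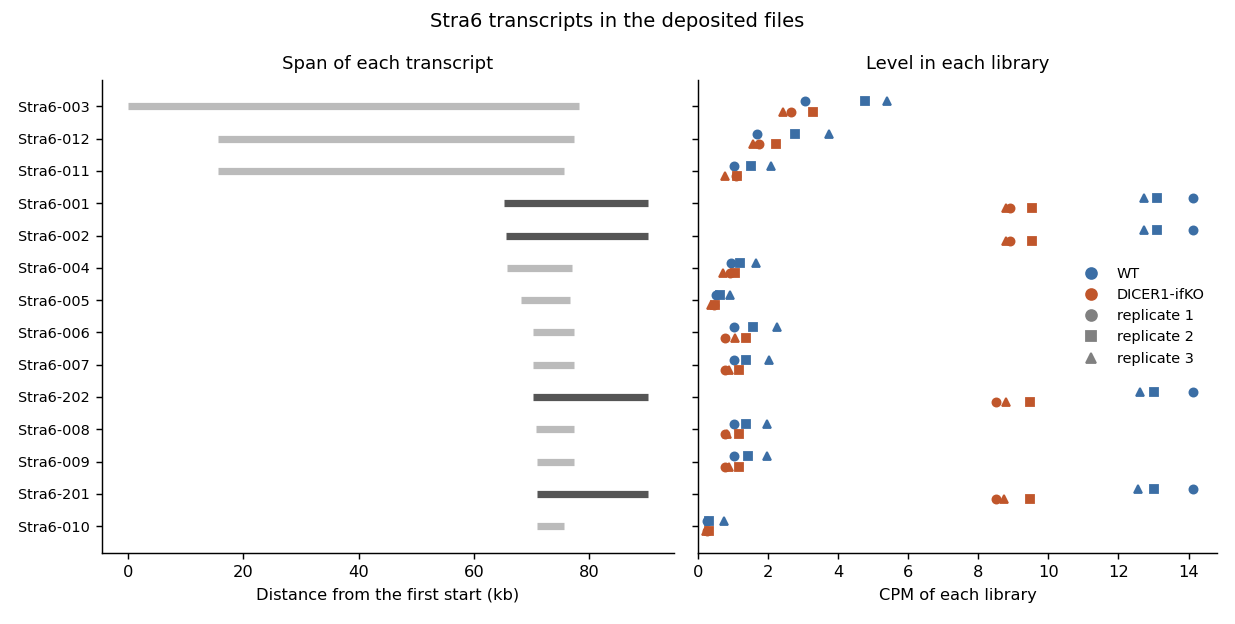
Left, the span of each of the 14 listed Stra6 transcripts in kb from the first start, with those that reach the end of the gene in dark grey; right, the level of each in every library in CPM. The 4 full-reach transcripts separate the genotypes, whereas in the short ones WT replicate 1 (circle) lies near the DICER1-ifKO libraries.

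The RAR genes, whose proteins bind retinoic acid itself, had fold changes whose intervals include 0. Rara, on chromosome 11 (chr11:98937718-98974942, plus strand), had 14.0, 14.9 and 12.2 CPM in WT and 15.6, 13.4 and 16.2 CPM in DICER1-ifKO. The groups overlapped, with the highest value in DICER1-ifKO replicate 3 and the lowest in WT replicate 3. Its log2 fold change was 0.14 ± 0.10 (SE), with an interval of -0.06 to 0.34, and 5 of its 7 transcripts were tested, at 0.03 to 0.17.

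Rarb, on the minus strand of chromosome 14 (chr14:16430842-16575472), is itself switched on by retinoic acid in many cells. It had 5.96, 5.85 and 4.37 CPM in WT and 5.26, 5.61 and 5.13 CPM in DICER1-ifKO. The DICER1-ifKO values lay inside the WT range, which WT replicate 3 widened downward. Its log2 fold change of -0.01 ± 0.15 (SE) had an interval of -0.30 to 0.29. These Rarb values are uncertain, because Top2b, a topoisomerase gene at 106.5 to 130.1 CPM, lies on the opposite strand. Its exons, pooled over all annotated Top2b transcripts, cover 57.7% of the Rarb transcript (1793 of 3108 bases). Whether Top2b reads entered the Rarb counts was not tested.

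RAR and RXR pairs are known to bind a direct repeat of a hexamer with 5 bases between the copies, and promoters were searched for it because Rarb is a read-out of retinoic acid in many cells. The 250 bases before the RefSeq start of Rarb (GRCm38.p6, minus strand, chr14:16575477-16575726) hold 1 at positions -53 to -37 from the start. The same stretch before Stra6 (plus strand, chr9:58128838-58129087) is shown for comparison and holds no such hexamer. Capitals mark the repeat.
Rarb upstream: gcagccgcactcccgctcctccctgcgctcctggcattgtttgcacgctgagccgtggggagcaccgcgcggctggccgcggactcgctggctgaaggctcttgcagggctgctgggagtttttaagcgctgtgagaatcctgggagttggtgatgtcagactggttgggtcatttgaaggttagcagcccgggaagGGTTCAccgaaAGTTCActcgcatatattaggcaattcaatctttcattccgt
Stra6 upstream: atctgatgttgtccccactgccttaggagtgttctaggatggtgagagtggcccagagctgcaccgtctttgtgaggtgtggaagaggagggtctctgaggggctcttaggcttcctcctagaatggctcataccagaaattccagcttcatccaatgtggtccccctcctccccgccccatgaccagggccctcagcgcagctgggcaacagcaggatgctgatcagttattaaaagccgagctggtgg
The hexamers searched were AGGTCA with its variants AGTTCA and also GGGTCA and finally the variant GGTTCA, on either strand and in windows that also include 50 bases after the start. A repeat with 5 bases between copies was present in 32 of 32851 mouse windows (0.0974%), Rarb's being the only one in windows of the 8 genes. Repeats with 1 or 2 bases between copies were present in 0.222% and 0.268% of windows and in none of the 8 genes, and at least 1 hexamer in 43.7% of all windows. Windows of Rara, Rarb, Rxra, Rxrg and Stra6 were among the latter, for Stra6 that of another start (chr9:58133825-58134124), with 1 hexamer. Of the genes with the repeat spaced by 5, 6 were tested, 3 of them with positive and 3 with negative fold changes (median 0.02) and 0 called by edgeR, with a lowest adjusted p of 0.451.

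The RXR genes encode the partners that RARs need, and that many other nuclear receptors use as well. Rxra, on chromosome 2 (chr2:27677201-27762957, plus strand), had 21.5, 22.8 and 19.8 CPM in WT and 20.3, 20.4 and 24.7 CPM in DICER1-ifKO. DICER1-ifKO replicate 3 alone stood above the WT range, and the log2 fold change of 0.04 ± 0.09 (SE) turned to -0.07 without that library and to -0.02 without WT replicate 3. Rxrb, on chromosome 17 (chr17:34031812-34038393, plus strand), had 39.4, 37.6 and 42.3 CPM in WT and 36.2, 36.4 and 40.6 CPM in DICER1-ifKO, with a log2 fold change of -0.07 ± 0.07 (SE). DICER1-ifKO replicates 1 and 2 lay below all WT values and replicate 3 lay between them.

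Rxrg, the RXR gene of narrowest distribution, lies on chromosome 1 (chr1:167598384-167639623, plus strand). It had 5.11, 5.92 and 5.29 CPM in WT and 5.06, 3.72 and 5.13 CPM in DICER1-ifKO. DICER1-ifKO replicate 2 was the low library, and the log2 fold change of -0.24 ± 0.16 (SE) became -0.10 without it. The 95% intervals were -0.14 to 0.21 for Rxra, -0.21 to 0.06 for Rxrb and -0.54 to 0.07 for Rxrg.

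The enzyme genes had negative fold changes with overlapping groups. Aldh1a2, which makes retinoic acid (chr9:71215789-71296243, plus strand), had only 34, 30 and 65 counts in WT and 31, 42 and 30 in DICER1-ifKO. In CPM this was 2.89, 1.89 and 3.997 in WT and 2.01, 2.33 and 1.46 in DICER1-ifKO. WT replicate 3 was the highest and DICER1-ifKO replicate 3 the lowest, with the other 4 mixed between the genotypes. The log2 fold change was -0.61 ± 0.26 (SE, interval -1.11 to -0.11, adjusted p = 0.393 in edgeR), numerically larger than that of Stra6 but with a far wider error, and it was -0.28 without WT replicate 3 and -0.87 without WT replicate 2.

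Cyp26b1, the main retinoic acid degrading enzyme of this set (chr6:84571414-84593810, minus strand), had 9.87, 9.001 and 11.8 CPM in WT and 9.22, 8.33 and 7.37 CPM in DICER1-ifKO. WT replicate 3 was again the highest library and DICER1-ifKO replicate 3 the lowest, and WT replicate 2 lay below DICER1-ifKO replicate 1. The log2 fold change was -0.31 ± 0.13 (SE, interval -0.56 to -0.07, adjusted p = 0.373 in edgeR). It was -0.19 without WT replicate 3. Aldh1a2 and Cyp26b1, of retinoic acid production and breakdown, thus had their highest and their lowest value in the same libraries.

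**Figure D3:**
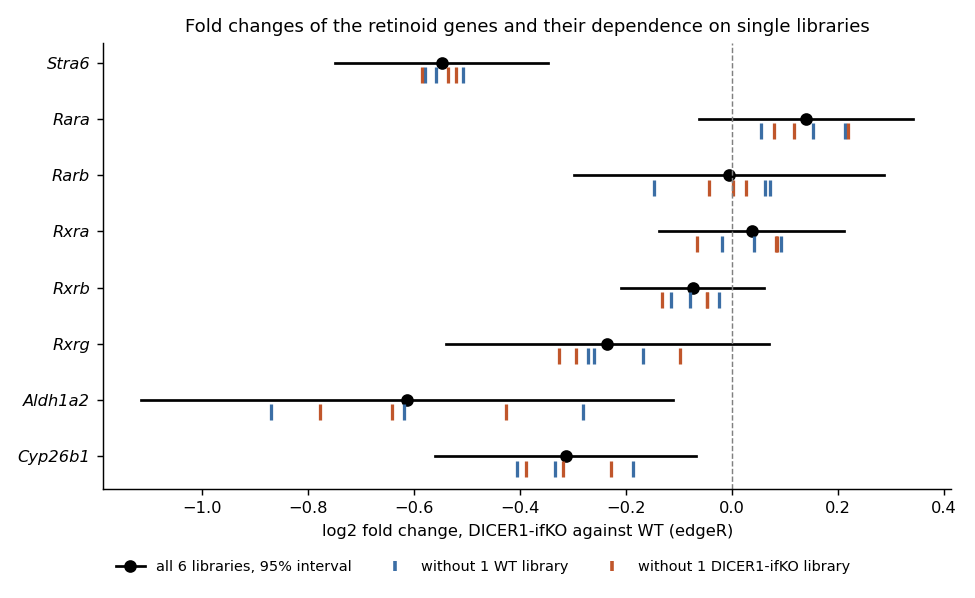
Log2 fold changes of the 8 genes (DICER1-ifKO against WT) with all libraries (points; lines, 95% intervals) and with 1 library left out (ticks, blue for WT and orange for DICER1-ifKO). The ticks of Stra6 stay between -0.59 and -0.51, those of Aldh1a2 spread from -0.87 to -0.28, and those of Rarb and Rxra fall on either side of 0.

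Of the 8 genes, 1 was called, in the lower direction, beside 0.0345% of all genes. The 3 values of each genotype failed to overlap in the same 1 of 8, beside 8.08% of all genes in that direction. Fold changes were negative in 6 and positive in 2, with a median of -0.15 against -0.0032 over all tested genes. The summed level of the 8 genes was 111 to 113 CPM in WT and 99.8 to 109.3 CPM in DICER1-ifKO. Stra6, whose difference selected the set, is part of these counts, of the median and of the sum, which therefore restate that selection in part.

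Compared per kb of transcript, the scale on which genes can be set side by side, only Stra6 changed its place in the order of mean levels between the 2 genotypes. That change restates the difference by which the set was selected. Rxrb led in WT with 15.1 ± 0.90 CPM per kb (SD, n = 3), followed by Stra6 at 4.89 ± 0.27, Rxra at 4.35 ± 0.30 and Rara at 4.04 ± 0.41. Rxrg (2.58 ± 0.20), Cyp26b1 (2.46 ± 0.35), Rarb (1.74 ± 0.29) and Aldh1a2 (1.29 ± 0.47) followed. Stra6 stood above Rxra in WT without overlap (4.67 to 5.19 against 4.04 to 4.65 CPM per kb) on the 2725 bases of Stra6-001. That separation depends on the transcript taken. Stra6-002 tied with it in the counts of every library but has 2993 bases, and on that length the WT values of Stra6 and Rxra overlap. In DICER1-ifKO the levels were 14.4 ± 0.94 for Rxrb, 4.45 ± 0.50 for Rxra, 4.44 ± 0.43 for Rara and 3.33 ± 0.15 for Stra6. There Stra6 (3.23 to 3.50) was below every value of Rara (3.95 to 4.78) and Rxra (4.14 to 5.03). Neighbours whose values overlapped were Rxra and Rara, and Rxrg and Cyp26b1, in both genotypes, Rarb and Aldh1a2 in WT, and Cyp26b1 and Rarb in DICER1-ifKO. Lengths came from GENCODE M21, for Rarb, Rxrb and Cyp26b1 from the nearest transcript, whose ends differed by 74, 4 and 594 bases.

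DICER1 makes microRNAs, which bind 3′ UTRs through bases 2 to 8, the seed, and lower the mRNA. The 3′ UTRs of the 8 representative transcripts (GENCODE M21) were searched for the 7 bases that pair with the seeds of 11 brain microRNAs, and 14 matches were found in 6 genes, with none in Rxrb or Rxrg. The microRNAs below matched the most genes, 3 each (mature sequences from RefSeq, seed in capitals).
miR-138-5p: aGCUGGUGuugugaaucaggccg
miR-128-3p: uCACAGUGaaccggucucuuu
Stra6 and Rara hold matches of both microRNAs, Cyp26b1 2 matches of miR-138-5p and Rxra 1 of miR-128-3p, shown with 4 bases on either side and the paired bases in capitals.
Stra6, miR-128-3p: gagtCACTGTGtcta
Stra6, miR-138-5p: acacCACCAGCttct
Rara, miR-128-3p: gcccCACTGTGaagg
Rara, miR-138-5p, bases 275 to 281: tcatCACCAGCaaac
Rara, miR-138-5p, bases 988 to 994: tagcCACCAGCaccc
Cyp26b1, miR-138-5p, bases 496 to 502: ctgcCACCAGCcttg
Cyp26b1, miR-138-5p, bases 1698 to 1704: atctCACCAGCcaca
Rxra, miR-128-3p: tttgCACTGTGgagc

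The Stra6 matches lie at bases 147 to 153 and 161 to 167 of its 633-base 3′ UTR. Among 1157 UTRs of like length, 11.8% hold CACTGTG and 7.61% hold CACCAGC. For UTRs like that of Rara these shares were 19.6% and 13.04%. Among UTRs like that of Rxra 42.2% hold CACTGTG, and among those like that of Cyp26b1 19.8% hold CACCAGC. The other matches were miR-132-3p in Rara, miR-125b-5p in Rxra, miR-137-3p in Aldh1a2, and miR-29a-3p and, at 2 places, miR-30a-5p in Rarb. The genes that hold miR-138-5p matches had log2 fold changes of -0.55 (Stra6), -0.31 (Cyp26b1) and 0.14 (Rara), and Rxra one of 0.04. The intervals of Rara and Rxra include 0. Whether the matches had a part in these values was not tested. A match describes letters only, and binding was not measured.

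Of the wider retinoid pathway, 85 of 87 further listed genes were in the files and 61 passed the filter. In edgeR's test 0 of these 61 were called, beside 0.161% of all genes, and 10 had an unadjusted p below 0.05, beside 1815 of 17405. Fold changes were positive in 34 and negative in 27, with a median of 0.02. The lowest adjusted p in edgeR was 0.1303.

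Among carriers and storage genes, 9 were tested and 7 had negative fold changes (median -0.05). Bcmo1, which cleaves beta-carotene to retinal, had 3.32, 3.90 and 3.997 CPM in WT and 2.66, 3.11 and 2.78 CPM in DICER1-ifKO, without overlap (log2 fold change -0.40 ± 0.17 SE, adjusted p = 0.416 in edgeR). Fabp5, a fatty acid and retinoic acid carrier, stood at -0.07 and Lpl, a lipoprotein lipase, at 0.06. Rbp4, the ligand of STRA6, had 6.09 ± 1.00 CPM in WT and 6.04 ± 0.26 CPM in DICER1-ifKO (SD, n = 3). The retinyl ester enzyme gene Lrat (0 to 4 counts) and the retinoic acid carrier gene Crabp1 (2 to 9 counts) did not pass the filter.

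Of 15 tested genes of retinal and retinoic acid synthesis, 7 had positive and 8 negative fold changes (median -0.04). The retinol dehydrogenase gene Rdh14 (-0.19 ± 0.08 SE) and the alcohol dehydrogenase gene Adh5 (-0.15 ± 0.06 SE) were lower without overlap, at adjusted p-values of 0.386 and 0.424 in edgeR. Rdh13 stood at 0.15 and Dhrs4 at -0.15. The relatives of Aldh1a2 stood near 0, with Aldh1a1 at -0.05 ± 0.06 (SE) and Aldh1a3 at 0.08 ± 0.12 (SE). Of the 4 further listed degradation genes 1 was tested, Cyp2s1 (-0.15 ± 0.19 SE). Cyp26a1 had 0 to 12 counts and Cyp26c1 0 to 3, and neither passed the filter.

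Rarg, the remaining RAR gene, had a log2 fold change of 0.07 ± 0.12 (SE). Of 11 receptor genes beside the 5 above, 8 had positive fold changes (median 0.05). Nr1i3, an RXR partner that senses foreign compounds, stood at -0.27 ± 0.09 (SE, adjusted p = 0.279 in edgeR). That value is uncertain, because exons of Tomm40l on the other strand, pooled over its annotated transcripts, cover 72.5% of the Nr1i3 transcript. Nr1i3 was called without WT replicate 2 (-0.40, adjusted p = 0.022 in edgeR). Thrb, a thyroid hormone receptor, was at 0.08, and the orphan receptors Nr4a2 and Nr4a1 at 0.10 and -0.11.

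The coregulators, through which these receptors act on transcription, had mostly positive fold changes, 13 of 15 (median 0.07), with 4 of 15 higher without overlap, beside 7.99% of all genes in that direction, and 0 called in edgeR, with 4 at an unadjusted p below 0.05. The coactivator gene Ncoa2 had 79.3, 84.9 and 83.8 CPM in WT and 91.0, 97.1 and 97.7 CPM in DICER1-ifKO (log2 fold change 0.20 ± 0.05 SE, adjusted p = 0.1303 in edgeR, and 0.046 with no filter on low counts). Ncoa6 (0.14 ± 0.05 SE), Ncoa3 (0.13) and the acetyltransferase gene Ep300 (0.05) were the remaining ones without overlap. Ncoa1 stood at 0.11 ± 0.05 (SE) with overlapping groups. WT replicate 1 was the lowest library for Ncoa2, Ncoa3, Ncoa6, Ncoa1 and Ep300 alike.

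Listed retinoic acid targets went both ways, with 6 positive and 7 negative of 13 tested (median -0.02). Meis2, a homeobox gene, was higher without overlap (0.19 ± 0.07 SE, adjusted p = 0.281 in edgeR). Nrgn, a postsynaptic calmodulin-binding protein gene, stood at -0.09 and Bhlhe40 at -0.07. Dhrs3, a retinal reductase that retinoic acid induces in many tissues, was at 0.09 ± 0.11 (SE). Hoxb1 had 0 counts in every library, which allows up to the 0.146 to 0.255 CPM given above for 3 counts.

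**Figure D4:**
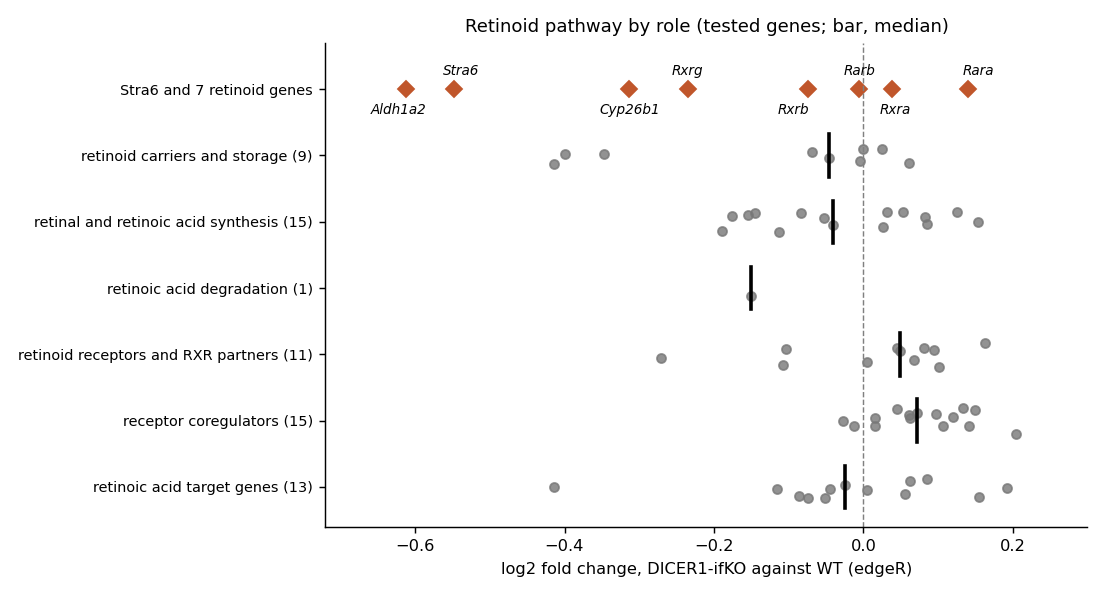
Log2 fold changes (DICER1-ifKO against WT) of the 8 genes (diamonds) and of the tested genes of 6 pathway roles (circles; number tested in brackets; bar, median). Stra6 and Aldh1a2 lie farther from 0 than any of the other 61 genes, and 13 of 15 coregulators lie above 0.

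Markers of adjoining tissue and barrier cells were read in the same libraries, since part of the retinoid system belongs to them. Of 10 tested choroid plexus markers 7 had negative and 3 positive fold changes (median -0.12), and 0 were called by edgeR, with 1 at an unadjusted p below 0.05. That gene was Sostdc1, a secreted signalling antagonist, which was lower without overlap, with 2.64, 2.33 and 2.40 CPM in WT and 1.43, 2.28 and 1.51 CPM in DICER1-ifKO (log2 fold change -0.48 ± 0.23 SE, adjusted p = 0.472 in edgeR). Clic6, an ion channel gene, had the lowest fold change of the list (-0.76 ± 0.38 SE), with overlapping groups at 0.342 to 1.20 CPM. The summed level of the list, 231 to 276 CPM in WT and 205 to 266 CPM in DICER1-ifKO, was mostly that of Enpp2 (171 to 218 CPM). Ttr, a carrier made by choroid plexus that binds RBP4, had 11.5, 9.57 and 21.95 CPM in WT and 14.5, 18.4 and 2.30 CPM in DICER1-ifKO. The Ttr groups overlapped widely, with the highest value in WT replicate 3 and the lowest in DICER1-ifKO replicate 3. The part of choroid plexus in the Stra6 values was not tested. Kl had 14.2 to 17.4 CPM over all libraries, and Folr1 (0.340 to 0.676 CPM) and Otx2 (0.195 to 0.922 CPM) were near the limit of 3 counts.

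Of 16 tested meningeal and fibroblast markers 14 had negative fold changes (median -0.18), and 0 were called by edgeR, with 2 at an unadjusted p below 0.05. Those 2 were the matrix proteoglycan genes Lum (-0.73 ± 0.20 SE, adjusted p = 0.158 in edgeR) and Fmod (-0.73 ± 0.30 SE, adjusted p = 0.386 in edgeR), both with lower fold changes than Stra6. Lum had 4.17, 3.27 and 4.37 CPM in WT and 2.92, 1.998 and 2.25 CPM in DICER1-ifKO, without overlap, and the Fmod groups overlapped. Lum was 1 of 2 genes of the list that were lower without overlap, beside 8.08% of all genes. The summed level of the list was 181 to 199.6 CPM in WT and 181 to 184 CPM in DICER1-ifKO, most of it from Dcn, Pdgfra and Vtn. For 11 of the 16 (68.8%) WT replicate 3 was the highest library, as it was for Aldh1a2 and Cyp26b1, beside 14.0% of all tested genes. It was also the highest for 7 of 10 oligodendrocyte markers. Stra6 was highest in WT replicate 1 instead, as were 7 of 9 tested ependymal and 7 of 10 microglia markers, beside 22.85% of all tested genes. Slc6a13, 1 of the 11, stood at 5.35 CPM in WT replicate 3 against 3.89 to 4.26 CPM elsewhere. Dcn, not among them, had 39.0 CPM in that library against 41.9 to 56.2 CPM elsewhere, and Col1a1 ranged from 3.65 to 6.13 CPM. The part of meningeal tissue in the Stra6, Aldh1a2 and Cyp26b1 values was not tested.

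Endothelial markers summed to 313 to 342 CPM in WT and 326 to 332 CPM in DICER1-ifKO, and mural cell markers to 126 to 146 and 136 to 139 CPM, with 0 of 12 and 0 of 9 tested called by edgeR and 0 at an unadjusted p below 0.05. Striatal markers summed to 314 to 318 and 307 to 329 CPM, with 0 of 12 tested called by edgeR and 2 at an unadjusted p below 0.05. Drd1a stood at 4.22 to 5.22 CPM over the libraries. Adora2a, at 0.936 to 0.984 CPM in WT and 0.714 to 0.830 in DICER1-ifKO, was 1 of 2 lower without overlap, beside 8.08% of all genes. The groups overlapped in these sums. The groups did not overlap in the sums of pyramidal neuron markers (5111 to 5177 CPM in WT, 5231 to 5572 in DICER1-ifKO), astrocyte markers (3462 to 3645 and 3680 to 3832) and microglia markers (447 to 482 and 440.3 to 446). Single abundant genes weigh heavily in such sums: Camk2a alone gave 3279 to 3394 CPM in WT and 3497 to 3713 CPM in DICER1-ifKO, while 9 of 14 pyramidal genes had negative fold changes (median -0.06). Fold changes were negative in 5 of 10 astrocyte genes (median -0.0022) and 7 of 10 microglia genes (median -0.11), and 0 genes of these 3 lists were called by edgeR, with 5, 3 and 2 at an unadjusted p below 0.05. Of 9 tested ependymal markers 7 had negative and 2 positive fold changes (median -0.13), and 0 were called by edgeR, with 1 at an unadjusted p below 0.05. Lower without overlap were 2 of these 9, beside 8.08% of all genes. Of 10 dentate granule cell markers 8 had negative and 2 positive fold changes (median -0.09), and 1, Calb1, was called lower. Thalamus and habenula markers had mostly positive fold changes, 7 of 10 tested (median 0.16), with 0 called by edgeR and 2 at an unadjusted p below 0.05. Higher without overlap were 2 of these 10, beside 7.99% of all genes. Inhibitory neuron markers had 7 positive and 5 negative fold changes (median 0.03), and oligodendrocyte markers 2 and 8 (median -0.03), with 0 called in either list. The part of these cells in the Stra6 values was not tested.

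**Figure D5:**
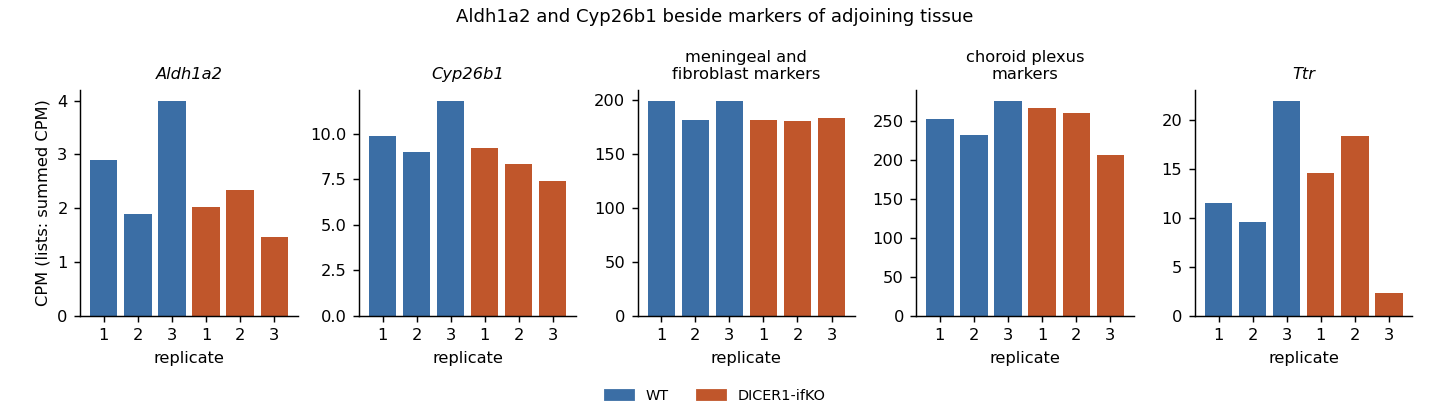
Level of Aldh1a2, Cyp26b1 and Ttr and summed level of the meningeal and choroid plexus marker lists in each library (bars, CPM, axes from 0; replicates 1 to 3 of WT in blue and of DICER1-ifKO in orange). WT replicate 3 is highest and DICER1-ifKO replicate 3 lowest for Aldh1a2, Cyp26b1, Ttr and the choroid plexus sum.

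The genes most like Stra6 over the 6 libraries, by Pearson's r of log2 CPM among 15470 genes whose mean log2 CPM reached 1, were Cald1, Ostc and Rpl35 (0.99 each), Arv1 (0.99) and Tubd1 (0.98). The most opposed were Setd1b (-0.998), Traf3 (-0.997), Gm6304 (-0.99), Cyth1 (-0.99) and Slc6a7 (-0.99). These libraries share the genotype difference, and with 6 of them many genes reach such values. With each genotype centred on its mean, other genes led. Vstm2a (0.9997), Ap1s3 (0.9989), Lgals12 (0.9965), Lgals8 (0.9962) and Pdha1 (0.99) were at the top and Aebp2, Gm10480, Prpf8, Traip and Pbx4 (all -0.99) at the bottom. These too are the extremes of 15470 genes over 6 libraries.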

How the data were processed

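Libraries were made with a stranded mRNA kit, per the labels' protocols. The submitters' processing notes name TopHat2 2.0.6 and Bowtie2 2.0.5, beside SAMtools 0.1.18, CASAVA 1.8.2 and DESeq2, and as builds mm10 and GRCm38. How reads were counted, and with which annotation and strand setting, is not given in the sources used here.

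The deposited files list 76938 transcripts, each with a raw count and a normalised value, per the file headers. The deposited normalised signal, the count divided by 1 factor per library, was not tested. Reads in shared exons are in the counts of each transcript, so each symbol was represented by 1 transcript. The design had assumed 1 count per gene. Reads of opposite strands were treated as not separable: 24 genes inside an abundant opposite gene had a median 1.90 times the read density of that gene.

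edgeR 4.0.16 under R 4.3.3 was applied to the counts (quasi-likelihood, TMM, filterByExpr with a minimum count of 10, genotype only, Benjamini-Hochberg over 17405 genes, threshold 0.05, prior count 0.125) after a test on simulated data. DESeq2 1.42.0, other scalings, no filter, summed transcripts, the replicate number as a block and each library left out were alternatives. Intervals are 95% normal intervals from the SE. The labels call the replicates biological. The chi-square per degree of freedom between libraries of a genotype was 1.75 to 4.35, so each counted as 1 replicate.

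The 8 genes, the 6 pathway and 13 marker lists and the 11 microRNAs were chosen with earlier results of these data known. Genes named were the 8 genes, up to 4 per pathway list with the smallest p, defining markers, the 5 most like and most opposed to Stra6, and the 5 on either side of the threshold. Rbp4, Lrat, Crabp1, Aldh1a1, Aldh1a3, Cyp26a1, Cyp26c1, Rarg, Dhrs3, Ep300, Hoxb1, Sostdc1, Clic6, Enpp2, Lum, Fmod, Pdgfra, Vtn and Camk2a were named after their values were seen, as were the genes called lower and Dicer1, Top2b, Ccdc33 and Tomm40l. Some genes that this rule names are not reported here.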

Additional observations from a re-analysis of the deposited data

How the results depend on the processing

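Over 11 alternatives for each of the 8 genes, 76 of 88 kept their direction and their side of the threshold. Stra6 kept its direction in all 11, between -0.59 and -0.51, but was no longer called in 6, with adjusted p-values up to 0.173, among them 5 of the 6 fits with a library left out. Its adjusted p was 0.0018 with no filter on low counts, 0.024 with DESeq2's size factors, 0.039 with DESeq2 and 0.027 with counts summed over transcripts. Reversals occurred for Rarb, to 0.06 and 0.07 without WT replicates 1 and 2 and to 0.0024 and 0.03 without DICER1-ifKO replicates 1 and 3, and for Rxra, to -0.02 without WT replicate 3 and -0.07 without DICER1-ifKO replicate 3. The cause was not tested. Over the fits with 1 library left out, Rarb ranged from -0.147 to 0.0722 and Rxra from -0.0655 to 0.0922.

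Counts of called genes moved more. With no filter on low counts 151 genes were called, 108 higher and 43 lower, and with summed transcripts 7, 6 higher and 1 lower. Leaving out a library gave 6 to 105 called genes, 6 to 72 higher and 0 to 33 lower, the largest counts without WT replicate 2 and the smallest without DICER1-ifKO replicate 1. Of the further pathway genes 0 were called, except 1 with no filter (Ncoa2, adjusted p = 0.046) and 0 to 1 with a library left out (Nr1i3 without WT replicate 2, adjusted p = 0.022). Depth limits Aldh1a2 most: it rests on 30 to 65 counts per library, and its SE of 0.26 was the largest of the 8 genes.

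Same-numbered libraries of the genotypes did not deviate together (correlations -0.086 to 0.028). With so few libraries these correlations cannot tell whether the samples were prepared in pairs, so the fit with the replicate block is not set aside. With the replicate block 2 genes were called lower, and Stra6 stood at -0.55 with an adjusted p of 0.066.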
